A study of Linum usitatissimum with 4 samples.

Results

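Cytosines in the symmetric CG and CHG contexts (with H for any base but G) were taken from bisulfite sequencing of the genome of JRF-2, a cultivar of flax (Linum usitatissimum). All rows of the authors' 6 deposited CG and CHG tables were kept, which gave 298 of the 1894 listings in the series. They comprise 213 CG listings of 173 different cytosines and 85 CHG listings of 71 different cytosines. The other 1596 listings are in the asymmetric CHH context and serve as background.

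The tables set 3 treated libraries against 1 untreated control library, so all comparisons share that control. Seedlings in the first library had both treatments: their seeds were soaked in 1 mM 5-azacytidine for 24 h in the dark at 20 °C, and the plants were later heated. The second library had the 5-azacytidine soak without heat, the third had heat without 5-azacytidine, and the control had neither. Heat was 40 ± 2 °C at 70% relative humidity for 4 h a day on 5 consecutive days, followed by recovery at 22 ± 2 °C. All 4 groups were 21 days old and grown at 22 ± 2 °C in days of 16 h light and 8 h dark. Each library pooled shoot apices of 3 to 5 cm from 10 seedlings, so the apex was read as a mixture of cell types and each group is 1 library without replicates.

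Every difference and q-value below is the authors' deposited value for a single cytosine. A difference is in percentage points of methylation and was read as treated minus control, a sign that the files do not state. No spread between plants can be given, and the read depth behind each cytosine is unknown. Listed cytosines have q below 0.05 and a difference above 5 points, and a cytosine missing from a table is not shown to be unchanged. The sources used here give no genome build.

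A CG, and a CHG whose middle base is A or T, reads as the same context on both DNA strands, so each such motif offers a methylatable cytosine on either strand. After replication, plant MET1-type methyltransferases copy CG methylation from the old strand to the new one, helped by proteins that bind hemimethylated sites. Chromomethylases of the CMT3 type maintain CHG methylation together with methylation of histone H3 at lysine 9, while CHH methylation has no partner on the opposite strand and is laid down again by DRM2 and CMT2. 5-Azacytidine is a cytidine analogue that enters DNA and traps methyltransferases.

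The opposite strand's cytosine lies 1 bp away in a CG and 2 bp away in a CHG, and pairs of listed cytosines at those spacings were treated as the strands of 1 motif. In the CG tables, 16 of 213 listings (7.51%) formed 8 pairs, and 18 of 85 CHG listings (21.2%) formed 9 pairs. These 17 pair listings stand for 16 different motifs, because 1 CHG pair on Lu7 was listed in 2 comparisons. The other 264 of the 298 listings (88.6%) had no listed cytosine at the partner position in the same comparison. Counted by motif, the CG cytosines fell into 164 motifs and the CHG cytosines into 63.

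The spacing of listed cytosines differed between the contexts. Among CHG cytosines, 9 position pairs lay 2 bp apart and 1 pair lay at any of the 9 other spacings from 1 to 10 bp. Among CG cytosines, 8 position pairs lay 1 bp apart, and the other spacings held 2 to 8 pairs each, with 8 at 6 bp. By comparison, the CG pairs at 1 bp were 4 for 5-azacytidine plus heat, where each other spacing held 2 to 7, and 4 for 5-azacytidine, where the other spacings held 0. Heat had 0 CG pairs at 1 bp and 3 at the other spacings. The partner spacing therefore stood out among CHG cytosines and among CG cytosines of the 5-azacytidine comparison, and not among CG cytosines of 5-azacytidine plus heat. The stretch of Lu9 with most pairs held 6 of the 9 CHG pairs and 3 of those 4 CG pairs for 5-azacytidine. CHH cytosines, which have no partner, gave 3 to 14 position pairs at each spacing from 1 to 10 bp. A CG pair can also hold neighbouring motifs on opposite strands, as in consecutive CG motifs, and the outer cytosine of a CCG counts as CHG while the cytosine opposite it lies in a CG. The tables do not separate these arrangements.

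**Figure D1:**
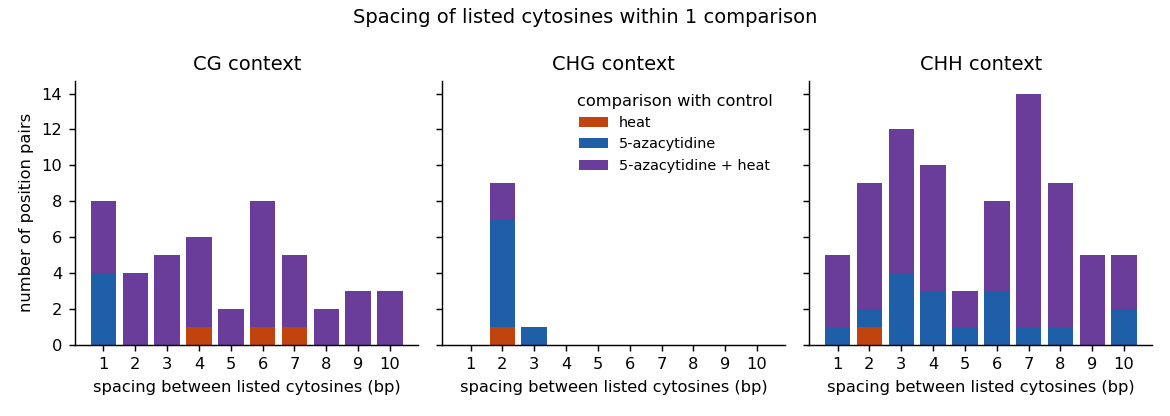
Number of position pairs of listed cytosines (vertical axis) at each spacing from 1 to 10 bp (horizontal axis) within 1 comparison, for CG, CHG and CHH; colours mark the comparison with the control library. The CHG panel has 9 pairs at 2 bp and 1 elsewhere, whereas CG has 8 pairs at 1 bp and 8 at 6 bp.

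In the comparison of 5-azacytidine plus heat with control, 79 of 101 CG cytosines (78.2%, 95% exact binomial interval 68.9 to 85.8) and 17 of 25 CHG cytosines (68%, 46.5 to 85.1) were lower than control. Over all contexts of that comparison 95.3% of listed cytosines were lower, and 97.6% in CHH. In the comparison of 5-azacytidine with control, 51 of 64 CG cytosines (79.7%, 67.8 to 88.7) and 38 of 47 CHG cytosines (80.9%, 66.7 to 90.9) were lower, against 90.8% over all contexts and 93.4% in CHH. In heat against control, 29 of 48 CG cytosines (60.4%, 45.3 to 74.2) and 6 of 13 CHG cytosines (46.2%, 19.2 to 74.9) were lower, against 78.8% over all contexts and 89.4% in CHH. The shares in CG and CHG were below the share in CHH in each comparison. Among cytosines with q below 0.001, the shares lower than control in CG were 58.1% for 5-azacytidine plus heat, 70% for 5-azacytidine and 37.5% for heat, and in CHG 80%, 88.2% and 42.9% in that order. These shares rest on 31, 20 and 16 CG cytosines and on 5, 17 and 7 CHG cytosines. Of the 17 CHG cytosines for 5-azacytidine, 11 lay in the Lu9 stretch with most pairs, all lower. Of the 20 CG cytosines for 5-azacytidine, 6 lay in that stretch, also all lower. No CHH share is given at this limit. The intervals above cover counting error only, and neighbouring cytosines are not independent.

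Symmetric cytosines made up 126 of 1144 listings for 5-azacytidine plus heat, 111 of 566 for 5-azacytidine and 61 of 184 for heat. The median absolute difference of CG cytosines was 13.8 points for 5-azacytidine plus heat, 13.1 for 5-azacytidine and 12.6 for heat, and that of CHG cytosines was 13.2, 14.7 and 12.6 points in the same order. The corresponding CHH medians were 9.40, 9.68 and 11.1 points.

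**Figure D2:**
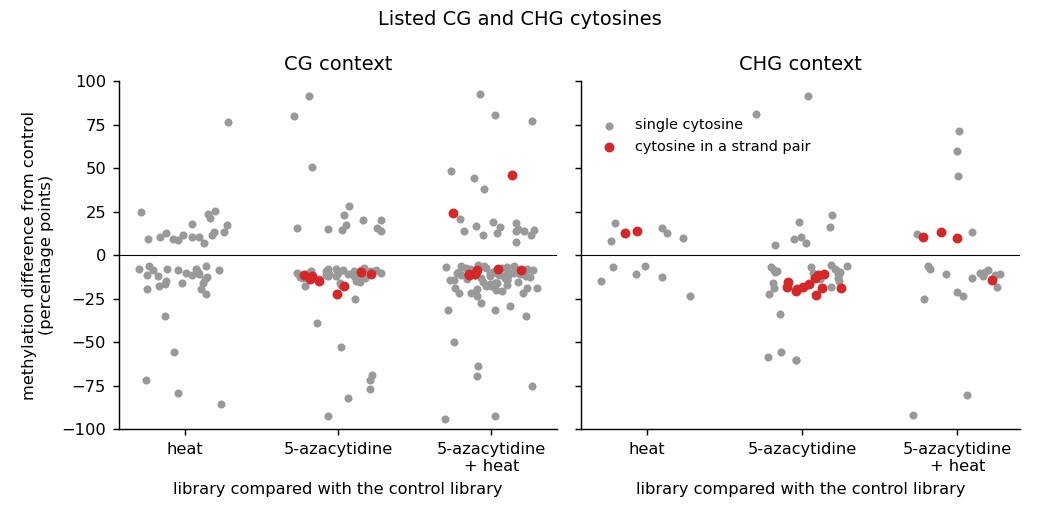
Methylation difference from the control library in percentage points (vertical axis) for each listed CG and CHG cytosine by comparison (horizontal axis, with random sideways offset); red points sit in a strand pair and grey points are single. The red points of the 5-azacytidine comparison are all below 0, and every point beyond 40 points of difference is single except 1 CG cytosine at 46.1 points.

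Both cytosines of a pair moved the same way in 8 of 8 CG pairs and in 8 of 9 CHG pairs. The differences on the strands of 1 pair were unequal by a median of 2.88 points in CG (range 0.602 to 21.7) and 3.52 points in CHG (range 0.232 to 24.6). Of the pairs, 7 CG and 6 CHG pairs were lower on both strands, all in the libraries treated with 5-azacytidine, with or without heat. Higher on both strands were 1 CG pair and 2 CHG listings of 1 motif. No CG pair was listed for heat alone, which had 48 CG cytosines.

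Most pairs lay in 1 stretch of Lu9, between positions 12308213 and 12309151, in the 5-azacytidine comparison. This stretch held 3 CG pairs and 6 CHG pairs, 9 of the 17 pair listings (52.9%), and both strands were lower in all 9. The nearest gene start belonged to Lus10011702, annotated as related to ATL42, a RING-type E3 ubiquitin ligase family that marks proteins for degradation, and the paired sites were 6898 bp or more downstream of that start. Neither comparison with heat listed a CG or CHG cytosine in this stretch. In the 5-azacytidine lists, 12.5% of CG and 25.5% of CHG cytosines were in pairs, and without this stretch 3.45% and 0%.

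The 6 CHG pairs on Lu9 had mean differences between -19.7 and -13.4 points. The pair with the lowest mean lay at positions 12308805 and 12308807, where the authors' deposited differences were -23.1 points (q = 2.09e-28) and -16.3 points (q = 3.97e-08). Next came positions 12309092 and 12309094 with -20.4 and -18.6 points, and positions 12309025 and 12309027 with -18.4 and -18.2 points. The last of these had nearly the same value on both strands, with a gap of 0.232 points. At positions 12308300 and 12308302 the differences were -19.4 and -13.3 points, and at 12308233 and 12308235 they were -18.9 and -10.9 points. At 12308348 and 12308350 they were -11.7 and -15.2 points, the 1 CHG pair of the stretch in which the higher position was the more negative.

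The 3 CG pairs on Lu9 had mean differences between -18.5 and -11.3 points. Positions 12309150 and 12309151 had deposited differences of -14.7 points (q = 1.61e-09) and -22.3 points (q = 5.27e-08). Positions 12308358 and 12308359 had -13.7 and -12.0 points, and positions 12308843 and 12308844 had -11.0 and -11.6 points. CG and CHG motifs of this stretch were thus lower on both strands side by side. All 6 paired CG cytosines and 11 of 12 paired CHG cytosines had q below 0.001.

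The stretch also held 3 single CHG cytosines, none with q below 0.001. Their deposited differences were 9.22 points at position 12308213, -13.9 points at 12308913 and -16.1 points at 12309142. The first was the only CG or CHG cytosine of the stretch that was higher than control. Among the CHH cytosines there, 4 of 9 listed for 5-azacytidine and 4 of 4 listed for 5-azacytidine plus heat were lower than control.

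A second stretch, on Lu2 between positions 18885848 and 18886103, was listed only for 5-azacytidine plus heat and only in CG. Its 13 cytosines were all lower than control, with deposited differences between -11.8 and -7.64 points, and 6 of them formed 3 pairs. Positions 18886047 and 18886048 had deposited differences of -8.44 and -11.4 points, positions 18886053 and 18886054 had -8.59 and -10.9 points, and positions 18886057 and 18886058 had -7.88 and -10.6 points. The higher position was the more negative in all 3 pairs, by 2.27 to 3.01 points. The q-values lay between 0.00605 and 0.0476, closer to the authors' limit than those on Lu9. Without this stretch 2.27% of the CG cytosines for 5-azacytidine plus heat were in pairs, against 7.92% with it. No CHH cytosine was listed in this stretch, and no gene could be assigned to it from the other tables.

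The remaining pairs were isolated. At positions 1004006 and 1004007 on Lu4, 1814 bp downstream of the start of Lus10030337, a CG pair had deposited differences of -9.67 and -17.5 points in the 5-azacytidine comparison. At positions 12209893 and 12209895 on Lu7, 1135 and 1137 bp upstream of Lus10007187, a CHG pair was higher in 2 comparisons. Its deposited differences were 13.3 and 10.7 points for 5-azacytidine plus heat and 14.0 and 12.5 points for heat. A CG cytosine 12 bp further on, at position 12209907, was also higher, by 16.4 points for 5-azacytidine plus heat and by 17.4 points for heat. Neither gene has a family description in the tables.

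On Lu15, a CG pair at positions 10756361 and 10756362 had the highest values of any pair in the 5-azacytidine plus heat comparison, at 46.1 points (q = 1.34e-06) and 24.4 points (q = 0.000812). It also had the widest gap among pairs that moved the same way, 21.7 points. The heat comparison listed only position 10756362, at 23.9 points. The nearest gene start, 7862 bp downstream of the pair, was that of Lus10041426, a protein kinase family member. Protein kinases transfer phosphate groups to other proteins.

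One pair had opposite signs. On Lu14, CHG positions 8137678 and 8137680 had deposited differences of -14.5 points (q = 0.0428) and 10.1 points (q = 0.00187) for 5-azacytidine plus heat, 666 and 664 bp upstream of the protein kinase gene Lus10002717. Position 8137680 alone was listed in the other comparisons, at 16.2 points for 5-azacytidine and 15.5 points for heat. On Lu10, the neighbouring CG positions 5825291 and 5825292 were listed in different comparisons, at 13.7 points for 5-azacytidine and 13.0 points for heat, so neither comparison listed both strands. The nearest gene start was that of Lus10023765, an ARF GTPase activator, a class of proteins that acts in vesicle traffic.

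**Figure D3:**
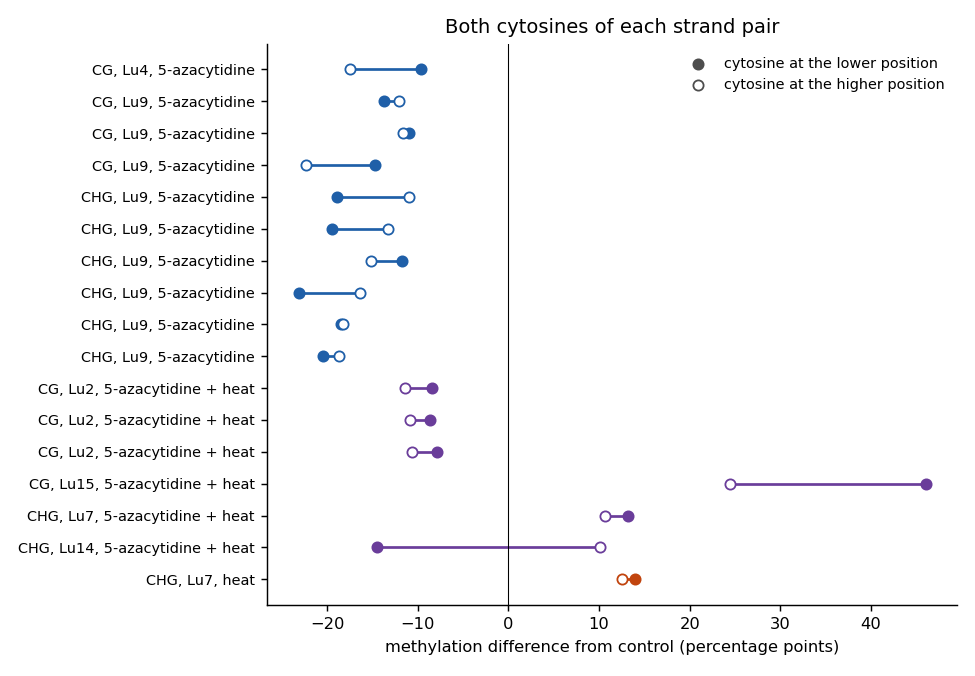
Methylation difference from control in percentage points (horizontal axis) for both cytosines of each of the 17 pair listings; filled circles mark the lower position, open circles the higher position, and the line is the gap. The CHG pair on Lu14 crosses 0 and the CG pair on Lu15 has values of 46.1 and 24.4 points.

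Of the 34 paired listings 22 (64.7%) had q below 0.001, and of the 264 single listings 74 (28.0%). The Lu9 stretch accounted for 17 of the 22. Without it, 5 of 16 paired listings (31.2%) and 74 of 261 single listings (28.4%) had q below 0.001. Of the listings with q below 0.001, 57 of 67 in CG (85.1%) and 17 of 29 in CHG (58.6%) were single, against 92.5% of all CG listings and 78.8% of all CHG listings. The lowest q of a single cytosine, 2.72e-23, was at CG position 8137658 on Lu14, with a deposited difference of -20.4 points for 5-azacytidine plus heat.

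Large differences, of either sign, lay mostly outside the pairs. Differences of 40 points or more occurred in 26 CG listings, 16 lower and 10 higher, and in 11 CHG listings, 6 lower and 5 higher. Of these 37, 1 sat in a pair, on Lu15, and 36 (97.3%) were single, against 88.6% of all listings. The median q of the large differences was 0.0291 in CG and 0.0284 in CHG, and 1 of the 37 had q below 0.001. At differences of 10 to 20 points, 51 of 113 CG listings and 22 of 44 CHG listings had q below 0.001. Under 10 points, 4 of 47 CG listings and 3 of 21 CHG listings had q below 0.001, with median q of 0.0251 and 0.0169. Low q-values were thus scarce among the largest and among the smallest differences. The read counts behind the largest differences are unknown.

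For 5-azacytidine plus heat, the lowest single CHG value was -91.7 points at position 13079285 on Lu6 (q = 0.0265), 1257 bp past the start of the HSP70 heat shock protein gene Lus10013882. HSP70 proteins are chaperones that help proteins fold. The highest single CHG value was 71.6 points at position 14089635 on Lu10 (q = 0.0473), near Lus10042787, annotated as a class-P alcohol dehydrogenase, an enzyme of fermentation. Another lay near Lus10012938, annotated as mitogen-activated protein kinase kinase 6, at 45.7 points on Lu11. The 3 lowest single CG values of this comparison were -94.1 points at position 15503993 on Lu13, -92.3 points at 18868674 on Lu4 and -75.0 points at 3205166 on Lu5. The 3 highest were 92.3 points at 5038747 on Lu13, 80.6 points at 4212295 on Lu8 and 76.9 points at 3893172 on Lu8. No gene could be assigned to these 6 CG positions.

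For 5-azacytidine, the lowest single CG values were -92.3 points near the kinesin gene Lus10010300 on Lu15 (q = 0.00206), -81.8 points near the ABC transporter B gene Lus10004518 on Lu3 and -76.9 points near the peroxidase gene Lus10029201 on Lu1. Kinesins are motors that move along microtubules, ABC transporters carry compounds across membranes, and peroxidases use hydrogen peroxide as an oxidant. The highest was 91.7 points near Lus10037550 on Lu3, annotated as related to TGA1, a bZIP transcription factor (q = 0.0462). In CHG the lowest were -60.2 and -60.0 points at positions 17343024 and 17343021 on Lu2, 3 bp apart and over 10000 bp from the start of Lus10033213. The annotation of this gene names glutathione S-transferase domains and an elongation factor 1 gamma domain. The highest CHG value was 91.7 points at position 12087227 on Lu3, 351 bp downstream of the start of Lus10015964, which has no family description.

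For heat, the lowest single CG values were -85.4 points near Lus10016846 on Lu12 (q = 0.0430), -78.9 points near Lus10002925 on Lu3 and -71.4 points on Lu3, 29056 bp upstream of Lus10019377. They are annotated as ARR1-related, a type of regulator in cytokinin signalling, as a PX domain protein and as the pollen development protein LAP3. The highest CG value was 76.3 points on Lu9, 48673 bp upstream of Lus10006147, a pyruvate, phosphate dikinase gene. CHG cytosines in the heat comparison spanned -23.5 to 18.7 points, with none at 40 points or more. The lowest of them lay 10062 bp before the start of Lus10002410, which encodes a soluble NSF attachment protein, part of the vesicle fusion machinery.

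Most motifs were listed in 1 comparison. In CG, 34 of 164 motifs (20.7%) were listed in 2 or 3 comparisons, and in CHG 10 of 63 (15.9%). The 5-azacytidine plus heat list shared 21 CG motifs with the heat list, which is 21.6% of its own 97 motifs and 43.8% of the 48 in the heat list. It shared 15 CG motifs with the 5-azacytidine list, 15.5% of its own and 25% of the 60 of that list. In CHG, it shared 8 motifs with the heat list, 34.8% of its own 23 and 66.7% of the 12 of that list, and 5 with the 5-azacytidine list, 21.7% of its own and 12.2% of the 41 of that list. The heat and 5-azacytidine lists, which have no treatment in common, shared 12 CG motifs. These were 25% of the 48 for heat and 20% of the 60 for 5-azacytidine. In CHG those lists shared 3 motifs, 25% of the 12 for heat and 7.32% of the 41 for 5-azacytidine. Of the 10 CHG motifs listed in 2 or 3 comparisons, 5 lay in a stretch of Lu14. Because the control library is common to all lists, these overlaps are given as counts only.

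Listings of shared motifs had a median absolute difference of 13.4 points in CG, against 13.0 points for those listed once, and of 12.3 points in CHG, against 14.7 points. Of the shared CG listings 44 of 76 (57.9%) had q below 0.001, against 23 of 137 (16.8%) of those listed once, and in CHG 13 of 26 (50%) against 16 of 59 (27.1%). Among large differences, 25 of 26 in CG and 11 of 11 in CHG were listed in 1 comparison. Over all listings this held for 137 of 213 in CG and 59 of 85 in CHG. Of the shared CG listings 43 of 76 (56.6%) were lower than control, against 116 of 137 (84.7%) of those listed once, and in CHG 14 of 26 (53.8%) against 47 of 59 (79.7%). The 12 higher shared CHG listings all lay in the Lu14 stretch or at the Lu7 pair. Shared motifs thus had differences in both directions, and in CG their median was close to that of motifs listed once.

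The 7 CG motifs listed in all 3 comparisons lay on Lu13, Lu14 and Lu4. Near Lus10024541 on Lu13, position 6960089 was higher by 19.2 points for 5-azacytidine plus heat, 15.4 for 5-azacytidine and 21.1 for heat. Position 6960009, 1817 bp upstream of the same gene, was higher by 18.7, 14.2 and 18.0 points in that order. Position 11392242 on Lu13 had deposited differences of -9.49, -11.7 and -10.5 points, 35120 bp from the DUF4370 gene Lus10009768. Position 1914053 on Lu4, near Lus10009854, had 11.8, 15.6 and 11.8 points. Both gains and losses were thus present among the motifs listed 3 times, in comparisons that share their control.

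Among motifs of 2 comparisons, the CG motif of the Lu15 pair had the largest mean absolute difference. Others were position 6960297 on Lu13, with 21.0 points for 5-azacytidine plus heat and 24.6 for heat, and position 6511250 on Lu7, 5054 bp upstream of Lus10008011, with -19.0 and -22.2 points in the same order. In CHG, the largest mean was at position 10827465 on Lu2, near the attachment protein gene Lus10002410, with -21.2 points for 5-azacytidine plus heat and -23.5 for heat. Position 4546584 on Lu15, near the cell division protein kinase gene Lus10002469 but over 10000 bp from its start, had -11.8 and -15.0 points. Such kinases drive the cell cycle. Position 9478129 on Lu11 had -10.6 points for 5-azacytidine plus heat and -8.99 for 5-azacytidine.

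**Figure D4:**
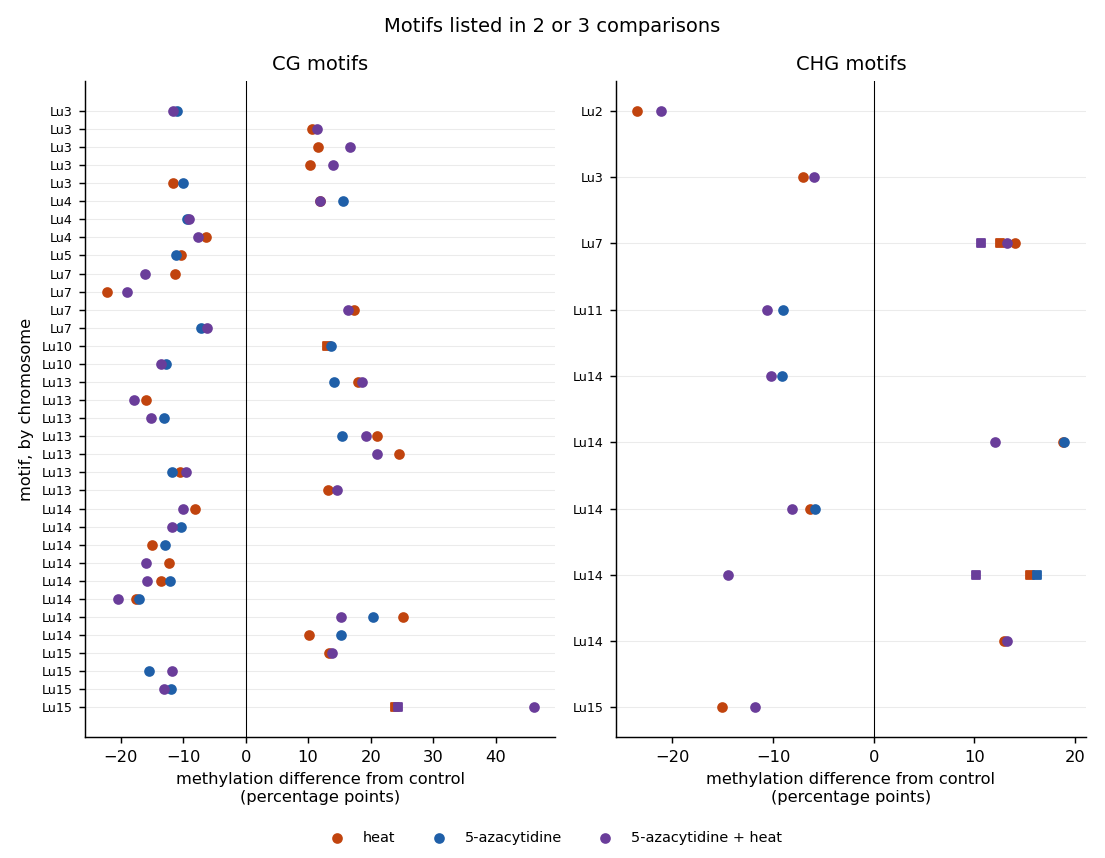
Methylation difference from control in percentage points (horizontal axis) for each of the 34 CG and 10 CHG motifs listed in 2 or 3 comparisons, ordered by chromosome; circles mark the lower or only listed position, squares the higher position, and colours the comparison. CG values reach from -22.2 to 46.1 points, and 1 CHG motif on Lu14 spans -14.5 to 16.2 points.

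A stretch on Lu14 between positions 8137087 and 8137699 held the most listings, 41 of 22 cytosines, with 26 lower and 15 higher. Those with an assigned gene lay upstream of Lus10002716, which has no family description, and of the kinase gene Lus10002717. Both directions were listed in each of the 3 comparisons. In contrast to the Lu9 stretch, it held 1 strand pair, the one with opposite signs.

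Within the Lu14 stretch, CG position 8137658 had deposited differences of -20.4 points for 5-azacytidine plus heat, -17.0 for 5-azacytidine and -17.5 for heat, and position 8137607 had -15.8, -12.1 and -13.6 points in that order. CG position 8137673, 15 bp above the first of these, was higher in each, by 15.3, 20.3 and 25.2 points. CHG position 8137629 was also higher, by 12.1, 18.9 and 18.7 points. Lower and higher cytosines thus lay among each other. In the stretch, 20 of 27 CG listings (74.1%) and 6 of 14 CHG listings (42.9%) were lower than control. CHH cytosines listed in the stretch numbered 5 for 5-azacytidine plus heat, 2 for 5-azacytidine and 3 for heat.

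A CG and a CHG cytosine lay 1 bp apart at 2 places, both in this stretch, and were listed together 5 times. At positions 8137658 and 8137659 the CG cytosine had deposited differences of -20.4, -17.0 and -17.5 points and the CHG cytosine -8.13, -5.85 and -6.33 points, for 5-azacytidine plus heat, 5-azacytidine and heat. At 8137607 and 8137608 the CG cytosine had -15.8 and -12.1 points and the CHG cytosine -10.2 and -9.07 points, for 5-azacytidine plus heat and 5-azacytidine. The CG cytosine had the larger fall in all 5 listings.

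**Figure D5:**
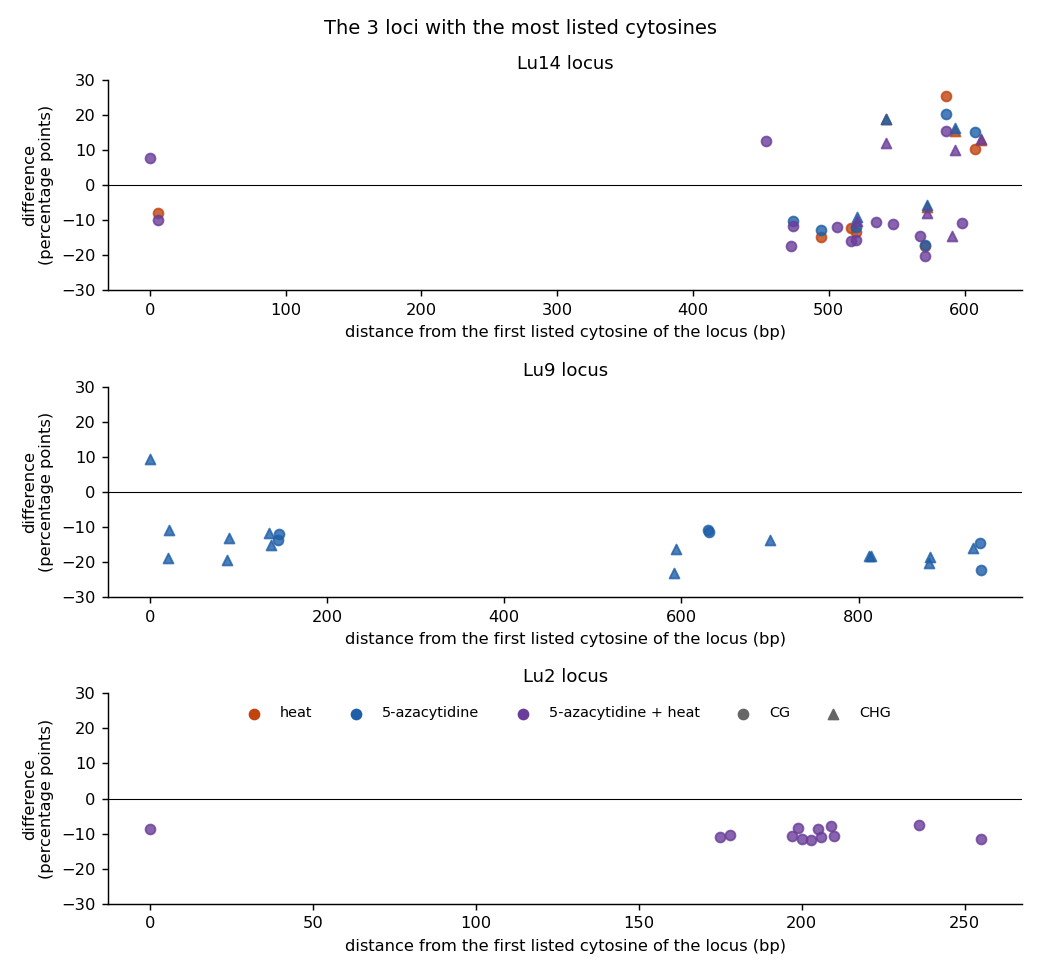
Methylation difference from control in percentage points (vertical axis) against distance in bp from the first listed cytosine (horizontal axis) in the stretches on Lu14, Lu9 and Lu2; circles are CG, triangles CHG, and colours the comparison. Points on Lu9 and Lu2 lie below 0 except 1 at 9.22 points, whereas Lu14 has points on both sides of 0.

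Joined into loci wherever neighbours lay at most 1000 bp apart, the 298 listings fell into 129 loci, of which 84 held 1 listing. The stretches on Lu14, Lu9 and Lu2 held 75 listings (25.2%). Of the 39 loci with 2 or more motifs, 25 held only lower cytosines, 1 only higher and 13 both. Neighbours within 100 bp in the same comparison were counted without those at the partner spacing, 1 bp in CG and 2 bp in CHG. Of the 213 CG listings 90 (42.3%) had such a CG neighbour, and of the 85 CHG listings 34 (40%) had such a CHG neighbour.

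By nearest gene start, 43 of the 131 CG cytosines with a gene (32.8%, 95% exact binomial interval 24.9 to 41.6) lay within 2000 bp. For 30 of the 131 the gene and distance were inferred from flanking sites, and by the authors' own entries alone the count was 32 of 101 (31.7%, 22.8 to 41.7). The other 42 CG cytosines, all from the 5-azacytidine plus heat table, have no gene, whereas every CHG and CHH cytosine has one. The share within 2000 bp was 13 of 71 in CHG (18.3%, 10.1 to 29.3) and 253 of 1404 in CHH (18.0%, 16.0 to 20.1). The Lu14 stretch alone held 16 of the CG and 6 of the CHG cytosines. Those of them with a gene lay 82 to 666 bp upstream of a start. Such neighbours are not independent, and the intervals cover counting error only, so CG is not shown to lie nearer to gene starts. Beyond 10000 bp lay 41 CG cytosines (31.3%), 23 CHG cytosines (32.4%) and 570 CHH cytosines (40.6%). No paired cytosine with a gene lay that far: the 10 CG and 16 CHG ones were near 3 genes in each context, 6 of the CG and 12 of the CHG ones near Lus10011702. The 6 paired CG cytosines on Lu2 have no gene, so their distance is unknown. The nearest start implies no link to the gene.

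The symmetric cytosines lay near 91 genes, 60 of which have a family description. Genes were grouped by words in these descriptions, which misses some members and takes in others. Over all CG and CHG listings, 220 of 298 (73.8%) were lower. Signalling genes, matched as kinases or phosphatases, were 4 with 17 listings, 6 lower and 11 higher. Of these, 9 listings of 5 cytosines, 2 lower and 7 higher, were at Lus10002717 in the Lu14 stretch. Protein turnover genes were 2 with 23 listings, 22 of them lower, nearly all at Lus10011702. Redox genes were 4 with 7 listings, 6 lower. Among them, 3 lower listings were at Lus10033213, whose annotation also names an elongation factor 1 gamma domain, so its place in this list is uncertain. Transport genes were 4 with 5 listings and vesicle traffic and cytoskeleton genes 4 with 6, all lower. With so few listings, these counts are not set apart from the overall share. The kinesin gene Lus10010300 is in both the transport and the vesicle traffic list. The transport words missed the copper transport gene Lus10020906 and the NRT1/PTR family gene Lus10038648, each with 1 lower CG listing. The vesicle traffic words missed the ARF GTPase activator gene Lus10023765, with 2 CG listings, both higher. Among dehydrogenases, the redox words missed Lus10042787, with 1 higher CHG listing, and the homoserine dehydrogenase gene Lus10034077, with 1 lower and 1 higher CG listing.

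Words for transcription factors matched 4 genes with 5 listings, 3 lower and 2 higher, among them TCP13 (Lus10032984), of a family known for control of leaf growth, whose 2 cytosines lay over 10000 bp from its start. They include Lus10013938, a FYVE zinc finger protein of a type that binds membrane lipids and is not a transcription factor, and miss the GRAS family genes Lus10012236 and Lus10014786, each with 1 lower CG listing. One gene each matched the chaperone list, the HSP70 gene, and the list of DNA methylation machinery and chromatin. The match in that list was Lus10041695, annotated as a DNA oxidative demethylase and alkylated DNA repair protein, with 1 lower CG listing for heat. It was matched by the word demethylase, and its annotation names repair of alkylated DNA, not removal of cytosine methylation. No methyltransferase gene was matched. The words of the cell wall list matched no gene. Outside those words, and chosen after their values were seen, were 3 genes of families with roles in cell wall or lignin formation. They were the exostosin family gene Lus10005492 with 2 CG listings, the cinnamoyl-CoA reductase-like gene Lus10006885 and the Casparian strip membrane protein gene Lus10033007 with 1 CHG listing each. Their listings were lower, as were 73.8% of all CG and CHG listings, so these few picked listings show no trait of cell wall genes.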

How the data were processed

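Per the labels, 4 groups of flax seedlings gave 1 bisulfite library each. Trimmomatic, FastQC, BWA, MethylDackel and methylKit were used, per the submitters' processing notes, with no versions given in the sources used here. The p-values and q-values in the deposited tables are the authors' own. The methylation difference is a score in percentage points and the distance to a gene start a score in bp, both as the authors deposited them, per the file headers. The sign was read as treated minus control, the methylKit convention; if coded the other way, higher and lower swap. Labels put bisulfite conversion before fragmentation. Read depth per library or cytosine is unknown.

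Each listing spans 1 bp. Whether positions count from 0 or 1 is not stated. Listings were sorted within a comparison and context, and cytosines 1 bp (CG) or 2 bp (CHG) apart were joined into pairs, a step tested on simulated positions. The simulated motifs lay well apart, so that check does not cover closely neighbouring motifs. Motifs were numbered the same way over the 3 comparisons together. Loci join listings at most 1000 bp apart. Shares have 95% Clopper-Pearson intervals; with 1 library per group no test across samples was made. Gene columns of the CG table of 5-azacytidine plus heat were not used: 29 of its cytosines took the gene given for the same cytosine elsewhere, 30 that of flanking sites with 1 gene, and 42 none. Base sequence and strand were not used here.

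Positions named in the text were drawn, per comparison and context, from the 3 lowest and 3 highest strand pairs and single cytosines, pairs of opposite sign, motifs listed 3 times, the top 5 motifs listed in 2 comparisons and the 3 densest windows of 1000 bp, those with a gene description first. Gene lists (9) were matched by words in family descriptions. Members and lists were chosen with earlier results of these data known. Tools were Python 3.11.15, pandas 2.3.3, NumPy 2.4.6, SciPy 1.17.1 and matplotlib 3.10.9. Alternatives were a limit of 0.001 on q, a limit of 10 points on the difference, counting motifs in place of cytosines, pairing from the highest position, and leaving out the loci on Lu2, Lu9 and Lu14.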

Additional observations from a re-analysis of the deposited data

How the results depend on the processing

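Of 68 recomputed values for 16 results, 50 stayed within the 95% interval of a reported share or within 1.5 times a reported count, and 18 moved. Some of the 50 could not move, so their number does not measure stability. No listed cytosine could be paired in different ways, so the order of pairing could not matter. With 0 pairs in the heat CG list, its share in pairs stays 0 under any filter, and counting motifs there changes nothing. Within the wide CHG intervals, the share in pairs was 10.5% for 5-azacytidine plus heat without the Lu14 locus, against 16% as reported, and 22.2% for heat without it or with differences of at least 10 points, against 15.4%. With q below 0.001, the share of CG cytosines lower than control was 37.5% for heat and 58.1% for 5-azacytidine plus heat. The share of cytosines in pairs was then 40% in CG and 58.8% in CHG for 5-azacytidine, and 0% in CHG for 5-azacytidine plus heat and for heat. With differences of at least 10 points it was 2.5% in CG for 5-azacytidine plus heat. Leaving out loci, chosen after seeing the data, gave 3.45% in CG and 0% in CHG for 5-azacytidine without the Lu9 locus and 2.27% in CG for 5-azacytidine plus heat without the Lu2 locus. CG pairs that moved the same way numbered 8 as reported, 5 with q below 0.001, 4 with at least 10 points and 5 without the Lu9 locus, and CHG pairs 8, 5 with q below 0.001 and 2 without the Lu9 locus. Motifs listed in 2 or 3 comparisons numbered 15 in CG and 5 in CHG with q below 0.001, against 34 and 10 as reported, and 5 in CHG without the Lu14 locus. Stricter limits and left-out loci keep fewer cytosines by construction; other causes were not tested. Pairing from the highest position downwards gave the same pairs. No paired analysis was possible because each group is 1 library and the differences come from no test of replicates. The unknown depth limits every value.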
